A study of Rattus norvegicus with 12 samples.

Results

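The genes described here code for 7 carrier and binding proteins that the liver secretes into plasma, and for alpha-fetoprotein, the fetal relative of albumin. They are Alb (albumin), Afp (alpha-fetoprotein), Ttr (transthyretin), Rbp4 (retinol binding protein 4), Ahsg (fetuin-A), Ambp (the precursor of alpha-1-microglobulin and bikunin), Gc (vitamin D binding protein) and Vtn (vitronectin). They were taken by name from the gene annotation of the arrays and make up 8 of 36172 gene names. Alb and Ahsg are each read by 2 probes and the others by 1, so that 10 probes stand for the 8 genes, and all 10 were well above background on all 12 arrays.

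Agilent arrays of a single colour measured the RNA of 4 groups of cells from F344 rats, with 3 arrays a group. The groups LN111, LN511 and Mat were small hepatocytes, the hepatocytic progenitor cells of adult rat liver, which had been sorted with magnetic beads for the surface protein CD44 9 days after plating and then grown on Matrigel, a basement membrane extract. At passage 2 they spent 3 h on coated dishes: LN111 on laminin-111, LN511 on laminin-511, and Mat on Matrigel. Their serum-free medium held bovine serum albumin, EGF (10 ng/mL), nicotinamide (10 mM), dexamethasone, an insulin, transferrin and selenium supplement, ascorbic acid 2-phosphate, proline and antibiotics. The group MH was the study's control, mature hepatocytes isolated from fresh livers and not cultured. MH thus differs from the 3 coatings in sort, medium and culture as well as in cell type. Whether a replicate is a separate animal, a separate culture or a repeat of one is not stated in the labels. The p-values therefore speak only of the spread among the arrays, part or all of which may be technical.

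Albumin is the most abundant protein of plasma and carries fatty acids, hormones and metals, and its mRNA is a classical mark of the hepatocyte. Alpha-fetoprotein is made by the fetal liver and yolk sac, is shut off after birth, and reappears in some progenitor cells and liver tumours. The 2 genes arose by duplication and lie next to each other, with Afm (afamin) beside Afp, on rat chromosome 14 in the RefSeq order of genes. Transthyretin carries thyroid hormone and binds retinol binding protein, which carries vitamin A out of the liver.

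The probe letters show what each measurement reads. The first 2 stretches belong to albumin, the third to alpha-fetoprotein and the last 2 to fetuin-A, whose second probe ends in a CTG repeat, printed in capitals. For probes close to the 3′ end of the transcript, 30 bases are printed. All letters are those of the array's own probe annotation, 5′ to 3′.
Alb, 3′ probe, last 30 bases: accttaaggaacacaaatttctttgaacat
Alb, coding probe, 60 bases: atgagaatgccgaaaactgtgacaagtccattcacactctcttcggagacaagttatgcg
Afp, first 30 bases: agcttttcggtttgatggtaactggtggag
Ahsg, first probe, 60 bases: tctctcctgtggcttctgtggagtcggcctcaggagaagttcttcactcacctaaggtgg
Ahsg, repeat probe, last 30 bases: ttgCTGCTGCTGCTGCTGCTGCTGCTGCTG
In the rn4 assembly that the files name, the 3′ albumin probe lies at chr14:19126980-19127039 and starts at base 1896 of the transcript. The coding albumin probe starts at base 253 and spans chr14:19138670-19140345, so that it crosses an exon junction. The alpha-fetoprotein probe lies at chr14:19092583-19092642, on the minus strand as both albumin probes do. The first probe of fetuin-A lies at chr11:80331051-80331110 and its repeat probe at chr11:80327198-80327257, both on the minus strand. The repeat probe is annotated to another transcript record than the first, and only the file's symbol names it Ahsg. The repeat probe holds 9 CTG copies, and it was the only one of 45598 probes with a repeat of that length. Binding of other transcripts with CTG repeats was not tested.

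The probes of Ambp, Gc and Vtn carry the largest differences described below, and their whole letters are given for that reason.
Ambp, 60 bases: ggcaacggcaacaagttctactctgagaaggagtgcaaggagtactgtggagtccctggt
Gc, 60 bases: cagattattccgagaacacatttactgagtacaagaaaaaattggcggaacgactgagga
Vtn, 60 bases: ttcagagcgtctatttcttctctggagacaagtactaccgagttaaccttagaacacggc
They lie at chr5:80120568-80120627 (minus strand), chr14:20190531-20192356 (plus strand, across a junction) and chr10:64611899-64612164 (plus strand, across a junction) in rn4.

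Array quality was even apart from 1 array. The share of the 58717 spots well above background was 52.2% to 62.7%, and no array had a saturated spot (0 on each). LN111 replicate 3 had 1126 spots with an outlier mark (350 to 499 on the other arrays), and the coefficient of variation of its repeated probes was 17.0% (9.52% to 10.9% on the others). All levels below are log2 processed signals minus the 75th percentile of the array, and a level of one probe cannot be set against that of another. That percentile was 1100 to 3030 on cultured arrays and 740 to 945 on MH arrays. Of the hepatocyte markers, 8 to 10 of 10 were well above background on the cultured arrays and 10 of 10 on each MH array. Kupffer cell markers were well above background in 1 to 4 of 7 cases on the cultured arrays and in 7 of 7 on each MH array. For sinusoidal endothelium these counts were 1 to 4 of 6 on the cultured arrays and 6 of 6 on each MH array. The part of these cells in the results was not tested, and in bulk RNA fewer cells of a type and less RNA per cell cannot be told apart.

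In the comparison of the 9 cultured arrays with the 3 MH arrays, the mRNA of the 7 carrier proteins fell, and that of alpha-fetoprotein did not pass the test. On the probe with the strongest signal of each gene, vitronectin fell 49.6-fold, Ambp 44.1-fold, Gc 17.5-fold, fetuin-A 12.3-fold, Rbp4 5.04-fold, transthyretin 2.91-fold and albumin 2.55-fold. By the limma test, 9 of the 10 probes were lower in the cultured cells, with adjusted p-values of 6.91e-06 to 0.00455, and 0 were higher. Of all 23624 probes tested, 40.2% were called lower and 31.3% higher, so a lower value in cultured cells is common on these arrays. On the same 9 probes the cultured arrays all lay below the 3 MH arrays, as did 33.3% of all probes tested. The median difference over all probes tested was -0.15 on the log2 scale. Without the noisier array, LN111 replicate 3, 9 member probes were again lower. Of all 23905 probes tested in that fit, 17445 were called, 7465 of them higher.

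**Figure D1:**
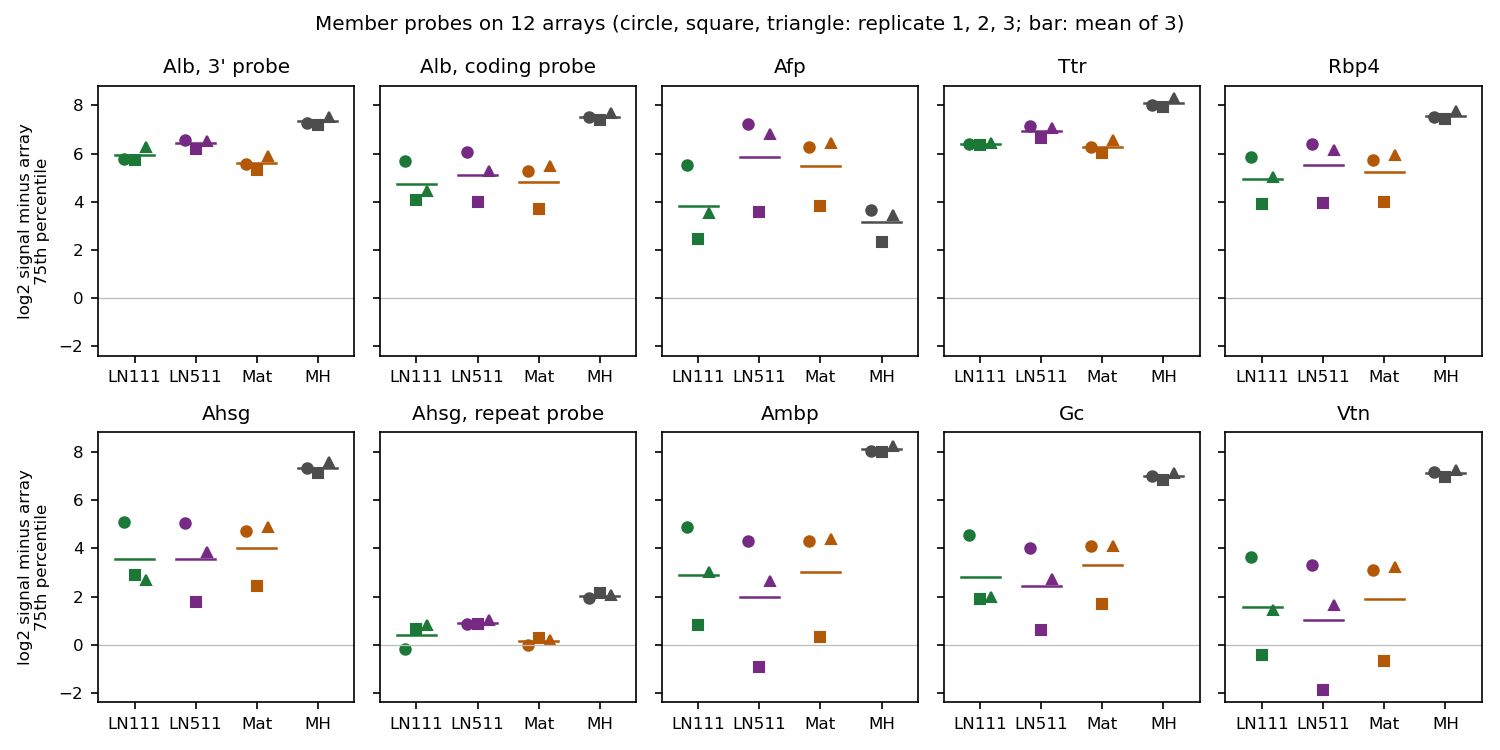
Normalized log2 signal of each of the 10 probes (vertical axis, log2 signal minus the array's 75th percentile) in LN111, LN511, Mat and MH (horizontal axis). Symbols are single arrays and bars are means of 3; on 9 probes the cultured arrays all lie below the MH arrays, and the Afp arrays overlap.

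Albumin was measured at 2 places in its transcript. At the 3′ probe the level was 5.79, 5.72 and 6.29 in LN111, 6.57, 6.18 and 6.52 in LN511 and 5.56, 5.32 and 5.91 in Mat, against 7.27, 7.21 and 7.53 in MH. The difference of cultured cells from MH was -1.35 ± 0.17 (log2, SE, limma adjusted p = 4.34e-05). At the coding probe the level was 5.70, 4.09 and 4.45 in LN111, 6.06, 3.98 and 5.28 in LN511 and 5.29, 3.72 and 5.49 in Mat, against 7.50, 7.38 and 7.67 in MH. There the difference was -2.62 ± 0.50 (adjusted p = 0.000749), a 6.16-fold lower signal. Both probes separated cultured cells from MH, and the coding probe varied more between replicates of a coating, with a pooled SD within coatings of 0.957 against 0.277 at the 3′ probe.

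The 2 albumin probes therefore did not give the same size of change. On each array the 3′ level minus the coding level was set against its mean in MH. It was higher by 0.27, 1.82 and 2.02 in LN111, by 0.70, 2.37 and 1.43 in LN511 and by 0.46, 1.78 and 0.60 in Mat, while the MH arrays lay between -0.05 and 0.04. All 9 cultured arrays stood above the 3 MH arrays, with a mean difference of 1.27 (exact two-sided permutation test over arrays, p = 0.00909, the smallest that 220 arrangements allow). The 3′ probe has 10 spots on each array, whose SD was 0.103 to 0.163 on the log2 scale, and the coding probe has 1 spot. The processed signal of the 3′ probe was 89803 to 136486 on cultured arrays and 126992 to 139441 on MH arrays, so before scaling the groups overlapped at this probe. At the coding probe it was 20900 to 113000 on cultured arrays and 149000 to 157000 on MH arrays, with no overlap.

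Scaling changed the albumin call at the 3′ probe. With quantile scaling the difference there was 0.13 (adjusted p = 0.249), and without scaling it was -0.33 (adjusted p = 0.121). Transthyretin behaved alike, at -0.02 with quantile scaling (adjusted p = 0.867) and -0.52 without scaling (adjusted p = 0.0371). At the coding probe albumin stayed lower, at -1.14 (adjusted p = 0.0596) and -1.60 (adjusted p = 0.00882). Rbp4 stood at -0.81 with quantile scaling (adjusted p = 0.246). The other 4 probes of Ahsg, Ambp, Gc and Vtn with the strongest signal kept both direction and call under these scalings, and the median of all probes moved to 0.18 with quantile scaling and 0.88 without scaling.

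**Figure D2:**
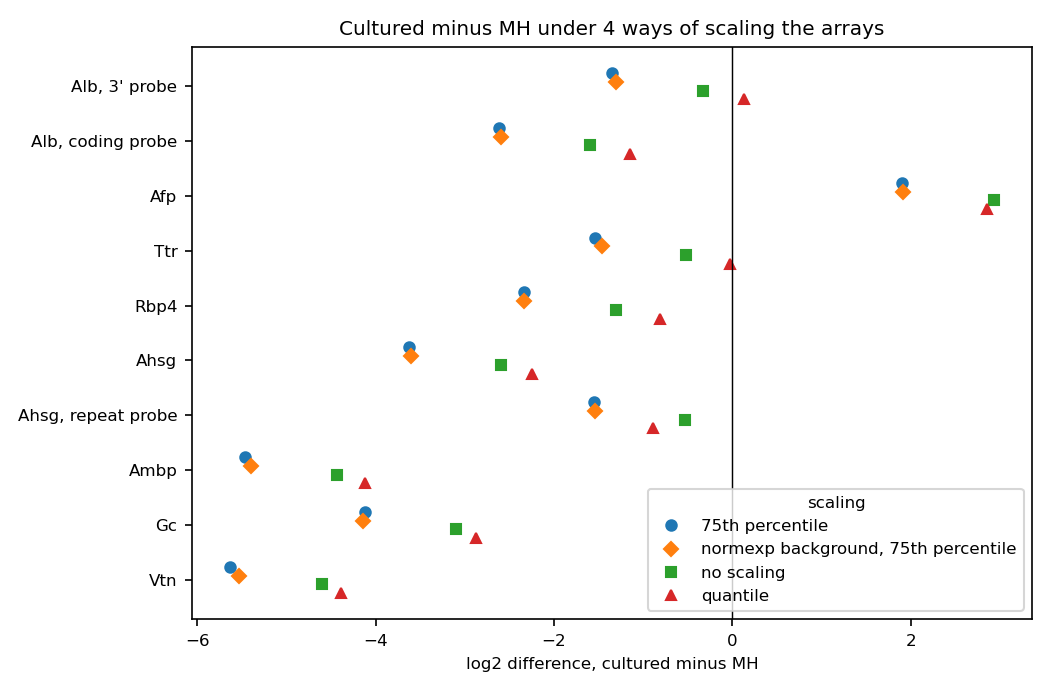
Log2 difference of cultured cells from MH (horizontal axis) for each probe (vertical axis) under 4 ways of scaling. The 3′ albumin probe lies at -1.35 with the 75th percentile and at 0.13 with quantile scaling, and Ambp and Vtn lie at -4.12 or lower in all 4.

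Transthyretin, the carrier of thyroid hormone, was at 6.40, 6.38 and 6.45 in LN111, 7.15, 6.63 and 7.06 in LN511 and 6.25, 6.01 and 6.56 in Mat, against 8.02, 7.93 and 8.30 in MH. It differed from MH by -1.54 ± 0.15 (adjusted p = 6.91e-06) and, like the 3′ albumin probe, varied little between replicates. Its partner Rbp4, which carries retinol, was at 5.86, 3.91 and 5.05 in LN111, 6.41, 3.97 and 6.15 in LN511 and 5.72, 4.003 and 5.94 in Mat, against 7.50, 7.42 and 7.75 in MH. It differed by -2.33 ± 0.59 (adjusted p = 0.00455), and replicate 2 was the lowest of its coating in all 3 coatings.

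Fetuin-A, which keeps calcium phosphate from precipitating in plasma, was at 5.10, 2.89 and 2.68 in LN111, 5.07, 1.78 and 3.84 in LN511 and 4.74, 2.42 and 4.89 in Mat, against 7.32, 7.12 and 7.57 in MH on its first probe. The difference was -3.62 ± 0.76 (adjusted p = 0.00143). Its repeat probe gave a level of -0.19 to 1.02 on cultured arrays and 1.93 to 2.15 on MH arrays, a difference of -1.55 ± 0.19 (adjusted p = 3.12e-05). The 2 probes did not follow each other among cultured arrays. The first probe was highest on LN111 replicate 1, where the repeat probe was lowest. Relative to MH the first minus the repeat probe was lower by 2.07 in cultured cells (exact permutation p = 0.0182), with 8 of 9 cultured arrays below every MH array.

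Ambp, whose product is cut into a heme-binding lipocalin and a protease inhibitor, had the widest range among cultured arrays. It was at 4.88, 0.80 and 3.03 in LN111, 4.30, -0.93 and 2.63 in LN511 and 4.32, 0.31 and 4.40 in Mat, against 8.04, 8.01 and 8.26 in MH. The difference was -5.46 ± 1.21 (adjusted p = 0.00206), and even the highest cultured array lay 3.13 below the lowest MH array. Gc, the carrier of vitamin D metabolites and of actin, was at 4.56, 1.91 and 1.99 in LN111, 4.02, 0.61 and 2.73 in LN511 and 4.11, 1.69 and 4.11 in Mat, against 7.00, 6.84 and 7.12 in MH. It differed from MH by -4.13 ± 0.79 (adjusted p = 0.000823). Vitronectin, an adhesion protein of plasma and matrix that binds integrins, was at 3.65, -0.41 and 1.45 in LN111, 3.32, -1.88 and 1.65 in LN511 and 3.12, -0.67 and 3.21 in Mat, against 7.17, 6.95 and 7.27 in MH. Its difference of -5.63 ± 1.18 (adjusted p = 0.00149) was the largest of the 10 probes.

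Each coating was also set against MH on its own. In LN111, 9 of 10 probes were lower and 0 higher, against 37.2% lower and 27.8% higher among all probes. In Mat the count was also 9 lower and 0 higher, against 39.9% and 25.9%. In LN511, 9 were lower and 1, Afp, was higher, against 34.9% and 31.4%. The differences of the 9 lower probes ran from -0.91 (albumin 3′ probe, LN511) to -6.10 (Ambp and Vtn, LN511), and these 3 comparisons share the MH arrays. With quantile scaling 5 probes were lower and 0 higher in LN111, 4 lower and 2 higher in LN511, and 2 lower and 1 higher in Mat, against 29.5% to 30.3% lower and 37.7% to 38.6% higher among all probes. Without scaling 2 were lower and 1 higher in Mat, against 9.86% and 66.1%. The higher ones were Afp and, in LN511 with quantile scaling, also albumin at the 3′ probe. Rbp4 in LN511 stood at -2.05 and moved to -1.28 without LN511 replicate 2 (adjusted p = 0.105). Without an MH array it stayed at -2.12 to -1.95 and the adjusted p was 0.0535 to 0.0716. Rbp4 in Mat was -2.34, and -1.73 without Mat replicate 2 (adjusted p = 0.0621).

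**Figure D3:**
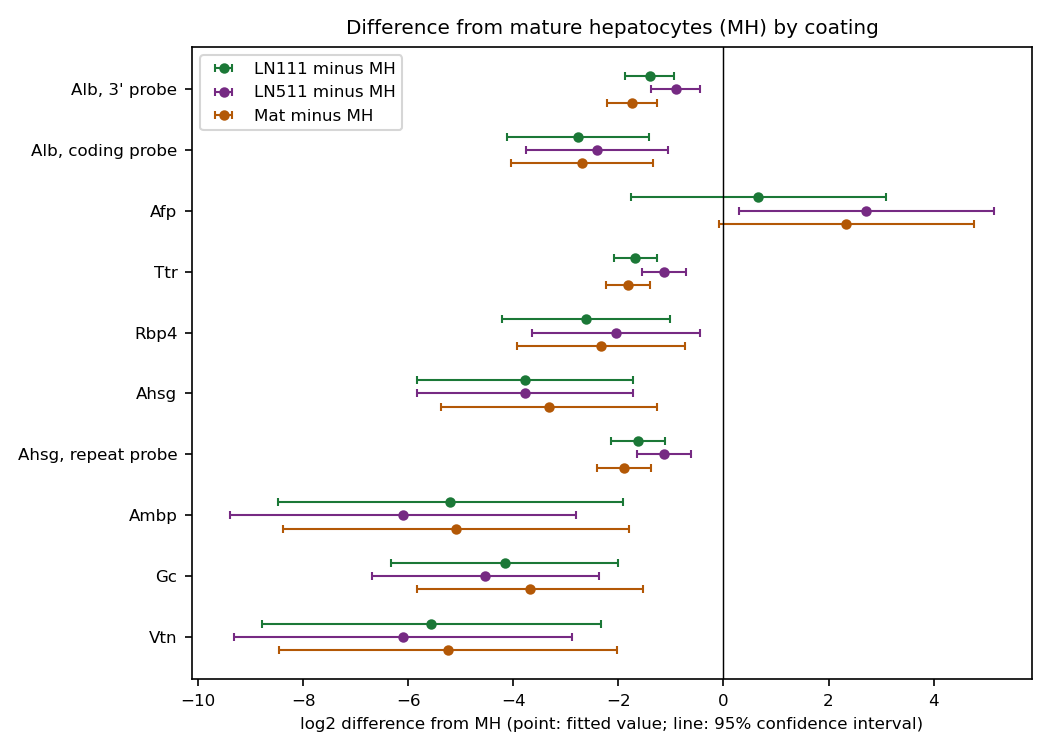
Fitted log2 difference from MH with its 95% confidence interval (horizontal axis) for each probe (vertical axis), for LN111, LN511 and Mat. All intervals except those of Afp lie below 0, and for Afp the interval of LN511 alone lies above 0.

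Arrays were scanned on 2 slides. Slide 1 held the 3 MH arrays with Mat replicates 1 and 2, and slide 2 held Mat replicate 3 with the arrays of LN111 and LN511. Within slide 1, Mat was lower than MH on 9 of 10 probes. Of all 23647 probes tested there, 14478 were called, 5792 of them higher. With slide as a block, 9 probes were lower in cultured cells and in Mat, 8 in LN111 and 7 in LN511. Of all 23624 probes, that fit called 12059 in cultured cells and 14325 in Mat, with 5127 and 5630 of them higher. In LN111 and LN511 it called 9530 and 9984, with 3852 and 4661 higher. Since LN111 and LN511 share no slide with MH, their contrasts with MH rest on the Mat arrays in that fit.

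Alpha-fetoprotein stood apart from the other 7 genes. Its level was 5.51, 2.44 and 3.54 in LN111, 7.24, 3.57 and 6.83 in LN511 and 6.26, 3.81 and 6.44 in Mat, against 3.68, 2.35 and 3.46 in MH. Of the 9 cultured arrays, 6 lay above every MH array and 0 lay below every MH array, so the groups overlapped. The mean difference was 1.91 ± 0.89 and did not pass the test (adjusted p = 0.0771, 95% interval -0.07 to 3.89). It was 0.67 ± 1.09 in LN111 (adjusted p = 0.610), 2.72 ± 1.09 in LN511 (adjusted p = 0.0481) and 2.34 ± 1.09 in Mat (adjusted p = 0.0821).

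The call in LN511 lay close to the threshold. The difference fell to 2.04 without LN511 replicate 1 (adjusted p = 0.162), to 2.24 without LN511 replicate 3 (adjusted p = 0.145) and to 2.31 without MH replicate 2 (adjusted p = 0.137). It was 2.97 and 2.87 without MH replicates 1 and 3, with adjusted p of 0.0674 and 0.0793. It stayed at 2.72 without LN111 replicate 3, Mat replicate 1 or Mat replicate 3 (adjusted p of 0.0557 to 0.0626) and with no filter on dim probes (adjusted p = 0.0769), so there only the p moved. With slide as a block the difference was 1.32 in LN511 (adjusted p = 0.623) and 0.82 over all cultured arrays (adjusted p = 0.689). In LN111 it turned to -0.73 with slide as a block and to -0.17 without LN111 replicate 1. Conversely, the comparison of all cultured arrays with MH passed once LN511 replicate 2 was left out (adjusted p = 0.0170) and once Mat replicate 2 was (adjusted p = 0.0399), with quantile scaling (2.86, adjusted p = 0.0147) and without scaling (2.93, adjusted p = 0.00543). Mat against MH passed under the same 4 changes, with quantile scaling at 3.59 (adjusted p = 0.0147) and without scaling at 3.95 (adjusted p = 0.00282). With replicate number as a block the differences were unchanged. The adjusted p was then 0.00281 in cultured cells, 0.00139 in LN511 and 0.00322 in Mat. What a replicate number shares is not stated in the labels. On cultured arrays the processed signal of the Afp probe was 9250 to 222000, against 4820 to 10500 on MH arrays.

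The within-array difference between albumin and alpha-fetoprotein is free of the 75th percentile scaling. Relative to the MH mean, the 3′ albumin level minus the Afp level was -3.89, -0.89 and -1.42 in LN111, -4.84, -1.57 and -4.48 in LN511 and -4.87, -2.67 and -4.70 in Mat, against -0.58, 0.68 and -0.11 in MH. All 9 cultured arrays lay below the 3 MH arrays. The mean was lower by 3.26 in cultured cells (SD over the 9 cultured arrays 1.63, SD over the 3 MH arrays 0.636, exact two-sided permutation test, p = 0.00909, the smallest possible). With the coding albumin probe it was lower by 4.53, again with 9 of 9 arrays below MH and the same p. For a single coating, with 3 arrays against 3, the exact permutation p cannot go below 0.10, so those values are described only. The test of all cultured arrays takes the 9 as separate units. Whether same-numbered ones share a source is not stated in the labels. If they do, that comparison is also of 3 with 3, with the same limit.

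By coating, the mean of that difference relative to MH was -2.07 ± 1.60 in LN111, -3.63 ± 1.80 in LN511 and -4.08 ± 1.23 in Mat at the 3′ probe (log2, SD, n = 3 each). At the coding probe it was -3.44 ± 0.72 in LN111, -5.13 ± 1.05 in LN511 and -5.02 ± 0.51 in Mat. LN111 thus had the smallest mean difference with either probe. Its arrays overlapped with those of LN511 at both probes and with those of Mat at the 3′ probe only. In each coating replicate 2 lay closest to MH. On those 3 arrays Afp was the lowest of its coating, with a range of 2.63 to 3.67 over the replicates of a coating, while that range was 0.393 to 0.591 for albumin at the 3′ probe. Within slide 1, where Mat replicates 1 and 2 meet the 3 MH arrays, the difference was -3.77, and the exact test there cannot go below p = 0.2.

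**Figure D4:**
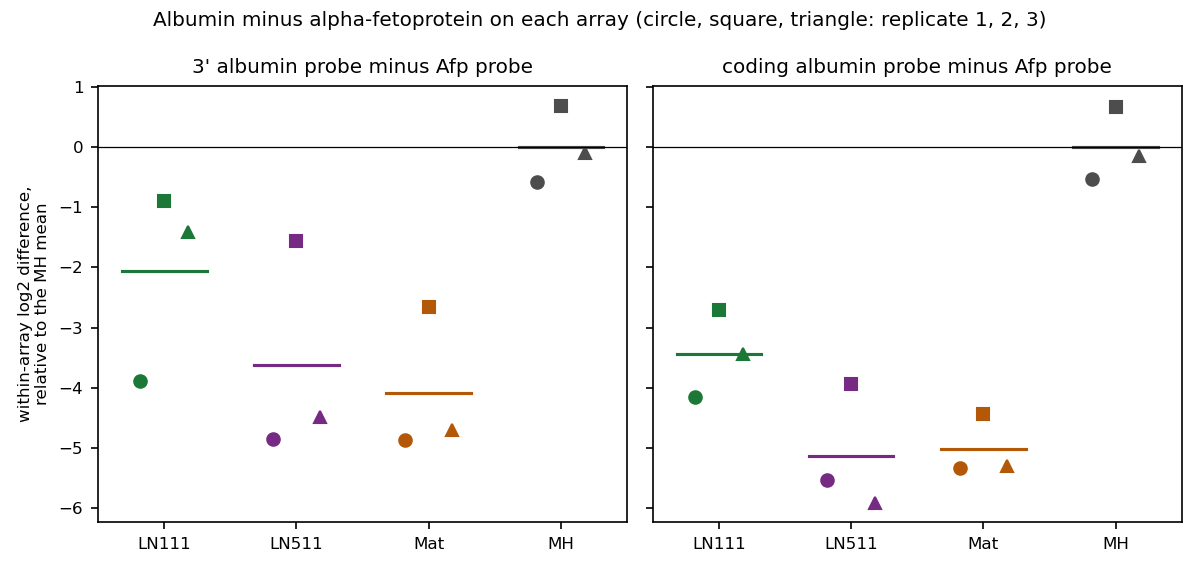
Within-array log2 difference of albumin minus alpha-fetoprotein relative to the MH mean (vertical axis) by group (horizontal axis), for the 3′ albumin probe (left) and the coding probe (right). Symbols are arrays and bars means; all 9 cultured arrays lie below the 3 MH arrays in both panels.

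The coatings themselves were compared over the 9 cultured arrays. No member probe passed in any pair of coatings or in the moderated F test over the 3 coatings (0 of 10 each by limma, in fits that leave out the replicate numbers). Of all 22315 probes tested, 15.8% passed between LN111 and LN511, 0% between LN111 and Mat, 7.23% between LN511 and Mat and 11.4% in the F test. At an unadjusted p under 0.05, 1 member probe passed between LN111 and LN511, 0 between LN111 and Mat, 3 between LN511 and Mat and 3 in the F test. Over all 22315 probes tested, 6891, 2636, 4751 and 6121 passed at that threshold, in the same order. The nearest were albumin at the 3′ probe, higher in LN511 than in Mat by 0.83 ± 0.22 (adjusted p = 0.0636), and transthyretin, higher by 0.67 ± 0.19 (adjusted p = 0.0772). The order of the coating means at both was LN511, LN111, Mat, and in the fits without a block neighbours in that order did not differ beyond the test's threshold. Without scaling Mat stood above LN511 at both, by 0.28 and 0.43 on the log2 scale, and with quantile scaling transthyretin did, by 0.094. With replicate number as a block, 2 member probes passed between LN111 and LN511 (Afp and transthyretin). Between LN511 and Mat 2 passed (3′ albumin and transthyretin), and in the F test 3 did. Of all 22315 probes, 5508, 2790 and 4494 passed with that block, in the same order. What a replicate number shares is not stated in the labels.

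For alpha-fetoprotein the coating means were 5.88 ± 2.01 in LN511, 5.50 ± 1.47 in Mat and 3.83 ± 1.55 in LN111 (SD, n = 3). LN111 minus LN511 was -2.05 with a 95% interval of -4.78 to 0.67 (adjusted p = 0.285), LN111 minus Mat -1.67 with -4.40 to 1.05, and LN511 minus Mat 0.38 with -2.35 to 3.10. With replicate number as a block, LN111 minus LN511 had a limma adjusted p of 0.0189. LN511 minus Mat turned to -0.20 with quantile scaling, -0.73 without scaling and -0.56 with slide as a block. For Ambp and Vtn the intervals were wider still, reaching -4.81 and 4.70 for Ambp. Ambp, Gc, Vtn and fetuin-A at its first probe had their highest coating mean in Mat, and albumin, transthyretin, Rbp4 and Afp theirs in LN511. At the repeat probe of fetuin-A the highest mean was in LN511 (0.908) and the lowest in Mat (0.146).

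Spread between replicates of a coating differed among the probes, and for albumin and fetuin-A between the 2 probes of the gene. Ttr and albumin at the 3′ probe had pooled SDs within coatings of 0.226 and 0.277, near the median of 0.297 over all probes tested, as had the repeat probe of fetuin-A (0.325). Albumin at its coding probe (0.957) exceeded 93.1% of the probes. Rbp4 (1.14), fetuin-A at its first probe (1.47), Gc (1.55), Afp (1.69), Vtn (2.32) and Ambp (2.36) exceeded 95.3% to 99.7% of the probes tested. In MH the SD of the carrier genes was 0.139 to 0.230 and that of Afp 0.712, against a median of 0.224 over all probes. The SD of every member probe was larger among replicate cultured arrays than among MH arrays, as was the median over all probes tested (0.297 against 0.224).

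The arrays that were low were the same for most members. Taking 1 probe a gene, replicate 2 was the lowest of its coating for 7 of 8 genes in LN111, 8 of 8 in LN511 and 8 of 8 in Mat. On LN511 replicate 2, the deviation from the mean of the cultured arrays was -3.57 for Ambp, -3.38 for Vtn and -2.25 for Gc. Hepatocyte markers moved with them: the list median was -1.47, -1.77 and -1.82 on the replicate 2 arrays of LN111, LN511 and Mat, and between -0.26 and 1.63 on the other cultured arrays. Progenitor or biliary markers did not show that pattern, with medians of -0.09, 0.58 and 0.07 on the replicate 2 arrays and of -1.22 to 0.76 on the others. The stellate or fibroblast list ranged from 1.31 to 2.67 in LN111, -3.30 to -0.95 in LN511 and -0.32 to 0.97 in Mat. Within each group its members were all detected on the cultured arrays, 7 of 7, and its part in the coating comparisons was not tested.

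**Figure D5:**
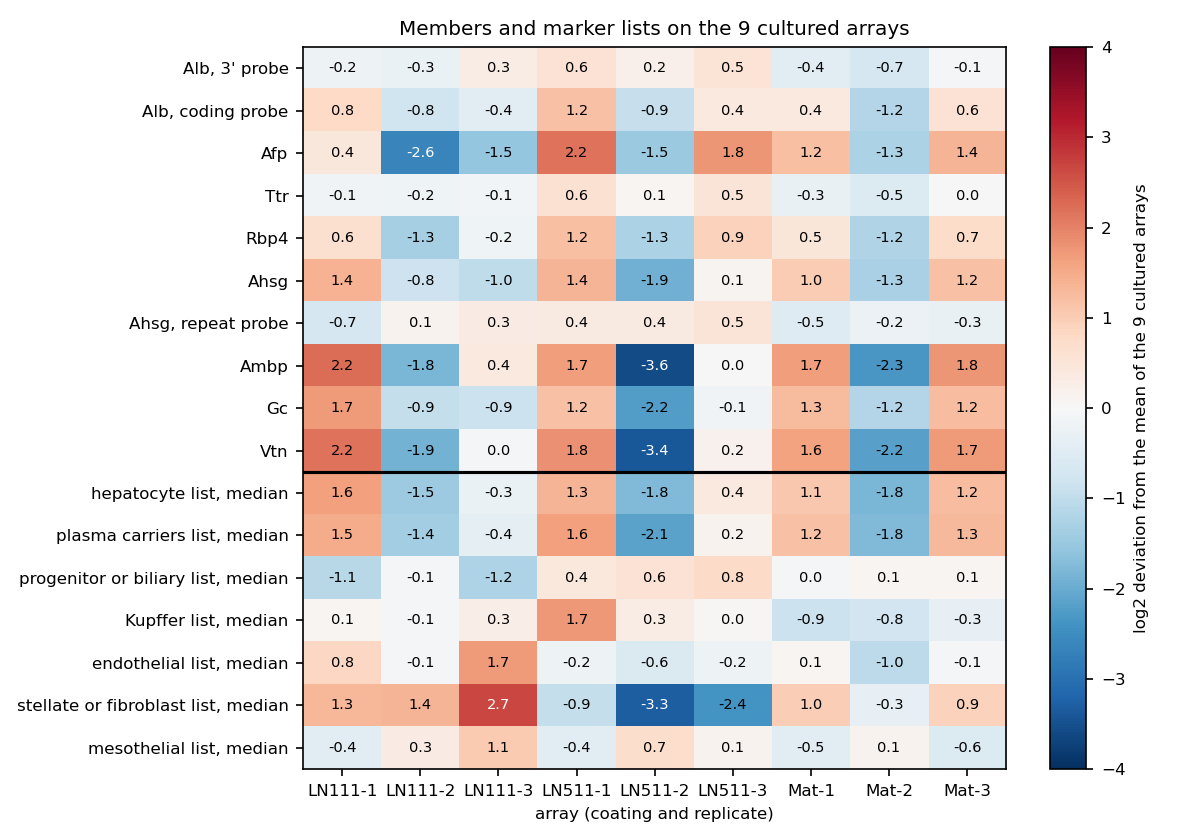
Log2 deviation of each member probe, and the median deviation of each marker list, from its mean over the 9 cultured arrays (rows) on each cultured array (columns). The replicate 2 columns are lowest for Ambp, Vtn and the hepatocyte list, at -3.57 and -3.38 for Ambp and Vtn on LN511 replicate 2.

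The genes whose levels followed albumin and alpha-fetoprotein most closely over the 9 cultured arrays were found among 10697 named genes well above background on all 9. For albumin at the 3′ probe these were Ankh (Pearson r = 0.981), Actg1 (0.976), Sobp (0.975), Rn45s (0.973) and Homer2 (0.968). For Afp they were Rgn (0.993), Prss22 (0.982), Slc25a13 (0.981), Srms (0.979) and Smco4 (0.968). Of the members, Ttr was closest to albumin (r = 0.925, rank 58) and Rbp4 closest to Afp (r = 0.930, rank 58), while albumin and Afp had r = 0.379 with each other. These values describe 9 arrays that share coatings and slides, and no test is attached to them. Every level has the 75th percentile of its array subtracted, which was 1100 to 3030 on cultured arrays. The processed signal of the 3′ albumin probe varied less, from 89803 to 136486. Its level was lowest on Mat replicate 2, where the percentile was highest. The part of this shared scaling in the r values was not tested.

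Other plasma carrier and binding proteins fell with the members. Of 20 genes listed, 18 were tested, and 17 were lower in cultured cells than in MH with a median of -4.39, against 40.2% lower and a median of -0.15 over all probes. The smallest p-values belonged to Lrg1 (adjusted p = 8.87e-07), which was well above background on 1 of 9 cultured arrays so that no size is given, Selenop, the selenium carrier (-4.32 ± 0.46), Tf, transferrin (-1.83 ± 0.20), and Hpx, the heme carrier hemopexin (-4.46 ± 0.68). Orm1, an acute phase protein that binds basic drugs, was the one that did not pass (-0.36, adjusted p = 0.723). Afm, the neighbour of Afp and its relative, was lower by 6.12 ± 1.17 on the log2 scale (adjusted p = 0.000776). No gene of this list passed in the F test over coatings, where Orm1 and Tf came nearest with adjusted p of 0.302 and 0.403.

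Regulators known for the albumin and alpha-fetoprotein genes were mostly lower too. Of 15 tested, 11 were lower and 1 was higher, against 40.2% lower and 31.3% higher among all probes. Cebpa, a factor of the differentiated hepatocyte, differed by -3.75 ± 0.23, Foxa1 by -2.40 ± 0.20 and Nr5a2 by -2.25 ± 0.27 (all called lower, adjusted p of 1.54e-07 to 2.57e-05). Zbtb20 and Zhx2, repressors that hold Afp down in the adult mouse liver, were lower by 1.00 (adjusted p = 0.0151) and 0.43 (adjusted p = 0.0264). In LN111 they differed from MH by -1.33 (adjusted p = 0.0111) and -0.48 (adjusted p = 0.0415). In LN511, where Afp was called higher, neither passed, at -0.65 (adjusted p = 0.157) and -0.27 (adjusted p = 0.229). Their part in the values of Afp was not tested. Among coatings, Foxa1 and Onecut1 passed the F test (adjusted p = 0.0273 and 0.0431), each lower in LN111 than in LN511, by 1.17 and 1.79.

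Among receptors and partners of the members, 8 of 15 tested were lower and 4 higher, against 40.2% lower and 31.3% higher among all probes. Dio1, a deiodinase that acts on thyroid hormone, was called lower (adjusted p = 4.81e-09) but was well above background on only 2 of 9 cultured arrays, so no size is given. Cyp2r1, the vitamin D 25-hydroxylase, was at least 4.41-fold lower (adjusted p = 6.15e-07). Gsn, gelsolin, which clears actin together with Gc, rose by 3.71 ± 0.28 (adjusted p = 7.55e-07). Plaur, the urokinase receptor, which binds vitronectin, rose by 3.89 ± 0.29 (adjusted p = 8.58e-07). Cubn, a kidney receptor for albumin and Gc, also passed, but was well above background on 0 MH arrays. In the F test over coatings Lrp2, an uptake receptor of the kidney, did not pass (adjusted p = 0.119). A value of "at least" sets the brighter group against the lowest signal well above background in the group where the probe was not well above background.

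Marker lists for the cell types that these samples could hold gave the following counts in cultured cells against MH. Among all probes tested, 40.2% were lower and 31.3% higher. Hepatocyte markers were lower in 10 of 10 and progenitor or biliary markers higher in 8 of 8. Cd44, the sort marker, is on the progenitor list. Kupffer cell markers were lower in 7 of 7 and endothelial markers in 5 of 6. Stellate or fibroblast markers were higher in 3 of 7, and mesothelial markers in 3 of 3. Of the yolk sac or gut list, kept because alpha-fetoprotein is also made there, both tested members were higher, Cdx2 at least 16.1-fold and Cubn at least 1.35-fold. Sox17, also on that list, did not pass the filter for testing. On MH arrays 1 to 2 of 8 progenitor or biliary, 0 of 3 mesothelial and 0 of 2 yolk sac or gut markers were well above background. Genes well above background only in cultured cells, or only in MH, entered the test through that side. The filter thus largely set their direction. The part of these lists in the values of Afp and of the carrier genes was not tested.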

How the data were processed

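Each array took 100 ng of total RNA with Cy3 as the dye, per the labels' protocols. Images were read with Agilent Feature Extraction 10.7, per the submitters' processing notes. The authors' deposited scanner files hold the processed signal, a linear intensity that was background-subtracted and detrended, per the file headers. The deposited value table holds the same intensity without scaling between arrays: no value differed by more than 0.0072 on the log2 scale, its column medians were 23.6 to 90.9, it is not centred, and a single-colour intensity has no direction. The authors’ own statistics are not given in the sources used here.

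From these files each signal was divided by the 75th percentile of its array and taken to log2. Control spots and outlier-marked spots were dropped first, and the remaining spots of a probe averaged (45489 of 45598 probes kept). Gene names came from the RefSeq table supplied by accession (21109 probes), another RefSeq accession (2631), the file's symbol (5159) or an older symbol (344), and were kept from the file for 16355. Testing was limited to probes that at least 1 fitted group had well above background on its 3 arrays. Tests were two-sided, from limma 3.58.1 under R 4.3.3 (functions lmFit and eBayes), with p-values adjusted over all probes tested by Benjamini and Hochberg’s method and called under 0.05. A fit of all 12 arrays served the comparisons with MH, where cultured is the mean of the 3 coatings, and a fit of the 9 cultured arrays those among coatings. Errors beside differences are standard errors. Within-array differences were tested over arrays by exact permutation in Python 3.11.15, which takes the 9 cultured arrays as separate units. The number of arrays limits the precision. The code was tested on simulated data.

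A gene's value was that of its brightest probe. All members and their probes were named. From the lists of other plasma carriers, of regulators, and of receptors and partners, up to 4 genes with the smallest p against MH and up to 2 in the F test were named, and for Alb and Afp the 5 most alike genes; Afm, Zbtb20, Zhx2, Cdx2, Cubn and Plaur were added after their values were seen. Some genes of these lists enter the counts and are not reported here. Members and lists were chosen with earlier results of these data known. The lists held 20, 15 and 18 genes, and marker lists covered hepatocytes, progenitor or biliary cells, Kupffer cells, endothelium, stellate cells or fibroblasts, mesothelium, and yolk sac or gut; Serpina7, Rbpr2, Clec4g and Upk3b were not matched to a probe. Alternatives were normexp background correction (offset 50), quantile or no scaling, a stricter filter or none, 1 probe a gene, signals raised to background, replicate number or slide as a block, within-slide fits and each array left out.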

Additional observations from a re-analysis of the deposited data

How the results depend on the processing

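Member probes called in cultured cells against MH numbered 9 to 10 when an array was left out, 9 in LN111, 8 to 10 in LN511 and 9 to 10 in Mat. Those fits tested 23660 to 24316 probes. Of these, 15754 to 17445 were called in cultured cells, 14459 to 15226 in LN111, 14373 to 16355 in LN511 and 13982 to 16237 in Mat. Quantile scaling gave 5 in LN111, 6 in LN511 and 3 in Mat, and no scaling gave 3 in Mat. Of all 23624 probes, quantile scaling called 16026, 16273 and 15879 there, and no scaling called 17947 in Mat. Among coatings, 0 stayed 0 in LN111 against LN511 and in LN111 against Mat when an array was left out, and LN511 against Mat and the F test over the 3 coatings gave 0 to 1. Those fits tested 22353 to 23135 probes. They called 1978 to 4505 between LN111 and LN511 and 0 to 8 between LN111 and Mat. Between LN511 and Mat they called 662 to 2214, and in the F test 1204 to 3244. Normexp background correction gave 3 in LN511 against Mat, where 4186 of all 22315 probes passed.

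The labels do not say what a replicate number shares. In deviations from group means, same-numbered arrays of different coatings correlated at 0.068 to 0.715. Of the 9 pairs 7 were over 0.1, the 2 others both held LN111 replicate 3, and in 15 of 18 cases an array correlated best with its own number, a hint of pairing from the data; with MH the range was -0.031 to 0.062. Since not every pair was over 0.1, the fits reported have no block. With the replicate block 2 probes passed in LN111 against LN511 (Afp, adjusted p = 0.0189, and transthyretin, 0.0459), 2 in LN511 against Mat (3′ albumin, 0.0158, and transthyretin, 0.0356) and 3 in the F test. Of all 22315 probes, 5508, 2790 and 4494 passed there, in the same order. Against MH, 10 passed in cultured cells and 10 in Mat, where Afp had adjusted p of 0.00281 and 0.00322. Of all 23624 probes, 17218 and 15971 passed in these. The block left albumin minus alpha-fetoprotein at -3.26, with -3.96 to -2.39 over the 3 numbers.

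Albumin minus alpha-fetoprotein was -3.55 to -2.92 with an array left out (exact permutation p of 0.0121 to 0.0364, each the smallest that the remaining arrays allow). It was -4.53 with the coding probe, -3.22 with normexp and, added after seeing the data, -2.73 with quantile scaling (exact permutation p = 0.0182). It was -3.77 within slide 1, where the exact permutation p cannot go below 0.2.

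Direction turned in these cases. With quantile scaling the 3′ albumin probe stood at 0.13 in cultured cells, 0.063 in LN111 and 0.36 in LN511 (adjusted p = 0.0231) against MH, transthyretin at 0.082 in Mat against MH and at -0.094 in LN511 against Mat, and Afp at -0.20 in LN511 against Mat. Without scaling, LN511 against Mat stood at -0.28 for the 3′ albumin probe, -0.43 for transthyretin and -0.73 for Afp. With slide as a block or within slide 2, Afp in LN511 against Mat was -0.56, and with slide as a block Afp in LN111 against MH was -0.73. With arrays left out, Afp ranged from -0.47 to 1.53 in LN511 against Mat and from -0.17 to 1.36 in LN111 against MH. The cause was not tested. The share of higher values among calls in cultured cells against MH over all probes was 43.8% with the 75th percentile, 26.4% with normexp, 56.2% with quantile scaling and 78.5% without scaling. The deposited value table, also added, changed no count of member probes. The probes were well above background on all arrays.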
